A study of Mus with 96 samples.

Results

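The comparison described here is that of hepatocyte-specific Bmal1 knockout livers with control livers in the middle of the dark phase, in mice on normal chow (NC). It rests on 8 of the 96 liver libraries of the series, the 4 Hep-Bmal1KO and the 4 Hep-Bmal1WT libraries that GEO's titles place at ZT18 on chow. ZT, Zeitgeber time, counts the hours from lights on in a cycle of 12 hours of light and 12 hours of dark. The Hep-Bmal1KO mice were AlbCre/+/Bmal1flx/flx and their Hep-Bmal1WT littermates Alb+/+/Bmal1flx/flx, all on a C57BL/6J background and 8 to 10 weeks old, so that the controls carried the floxed alleles too and no group lacked them. The Cre recombinase was driven by the albumin promoter, which is active in hepatocytes. Whether the other cells of the liver kept their Bmal1 is not shown by these data. Each group held 2 males (replicates 1 and 2) and 2 females (replicates 3 and 4), numbered in accession order since the labels give no replicate number. The remaining libraries were used as points of comparison. These were the 40 chow libraries at the other 5 ZTs and the 8 libraries taken at ZT18 from mice fed a choline-deficient high-fat diet (cdHFD) for 2 weeks. The paper lists cholesterol among the contents of the cdHFD and not among those it gives for the chow.

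BMAL1 (gene Arntl) pairs with CLOCK or NPAS2 and binds E-boxes in the promoters of the Per, Cry, Nr1d (REV-ERB) and Dbp genes. PER and CRY proteins then inhibit that pair, and the REV-ERBs repress Arntl, Npas2 and Cry1, which closes a second loop. In the liver this clock sets the daily course of many genes of lipid, sterol, amino acid and xenobiotic metabolism. ZT18 lies in the hours in which mice feed.

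The libraries were made with BRB-seq, which reads the 3′ end of each polyadenylated transcript. Between 4441385 and 7710483 reads fell on genes in the 8 libraries, against 1861740 to 9718615 in the whole series. Levels below are CPM, read counts scaled to a common library size, after TMM scaling over the 48 chow libraries. They compare one gene between libraries. A 3′ count does not depend on transcript length, but levels of different genes are not compared. In whole-liver RNA, fewer cells of a type and less RNA per cell cannot be told apart. Because the reads come from the 3′ end of the transcript, Arntl counts do not check the deletion of the floxed exon. Arntl was read at 7.07, 7.97, 11.5 and 3.31 CPM in the WT libraries and at 6.42, 5.57, 5.82 and 8.47 CPM in the KO libraries.

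Several libraries stood apart, and these values bear on every result that follows. WT replicate 4 is labelled Hep-Bmal1WT and lay with the other genotype. Each library was placed on a scale with 0 at the WT median and 1 at the KO median of the other chow libraries at its ZT. WT replicate 4 stood at 0.986 for 20 genes chosen at the other ZTs and at 0.991 for 16 clock genes. WT replicates 1, 2 and 3 stood at -0.295, -0.16 and 0.289 on the 20-gene scale, and the KO libraries between 0.881 and 1.07. Each gene set placed 6 of the 48 chow libraries past the midpoint towards the other genotype. The sets shared 4, WT replicate 4 among them, and these 4 are the libraries past the midpoint below. The others were WT females. Replicates 3 and 4 at ZT2 stood at 0.637 and 0.567 on the 20 genes. At ZT22, replicates 3 and 4 stood at 0.721 and 0.585 on the clock genes. Whether WT replicate 4 at ZT18 was mislabelled was not tested. The genotype comparison at ZT18 is therefore given with it (4 against 4) and without it (4 against 3), and its removal was a choice made from expression. In WT replicates 1 and 2, 39.9% and 36.6% of the reads were not on genes, against 25.4% to 29.9% in the other 6 libraries of the comparison. Genes of the pancreatic acinar cell, the cell that makes digestive enzymes, summed to 3320 and 1860 CPM in KO replicates 2 and 4 and to between 1.29 and 63.6 CPM in the other 6. Striated muscle genes summed to 1460 CPM in WT replicate 4, to 59, 207 and 449 CPM in the other WT libraries and to between 26.3 and 229 CPM in the KO libraries. The labelled tissue was checked by its hepatocyte markers, of which Alb took between 2.76% and 10.9% of the reads on genes in the 8 libraries. In the library names of the labels, a letter followed by a number, no number was shared by the genotypes, so that what it stands for and genotype cannot be told apart.

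Which genes differed between the genotypes at ZT18 was asked first across the genome. With all 8 libraries, 36 genes were higher and 46 lower in Hep-Bmal1KO livers at an adjusted p under 0.05 by edgeR's quasi-likelihood test, 82 of 15548 genes (0.527%, of which 0.232% higher and 0.296% lower). Of the 36 higher genes, 17 were pancreatic acinar genes. Without WT replicate 4, 177 genes were higher and 153 lower, 330 in all (2.12%, of which 1.14% and 0.984%). The calls held 80 genes in common, all in the same direction, and 250 were called in the smaller comparison alone. The 2 genes called with all 8 libraries alone, Hspb6 and Tnnc1, encode a small heat shock protein and a troponin of muscle. Their WT level was highest in WT replicate 4, at 68.8 and 14.5 CPM. Groups did not overlap for 611 genes (3.93%) with all 8 libraries and for 1612 genes (10.4%) without WT replicate 4.

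**Figure D1:**
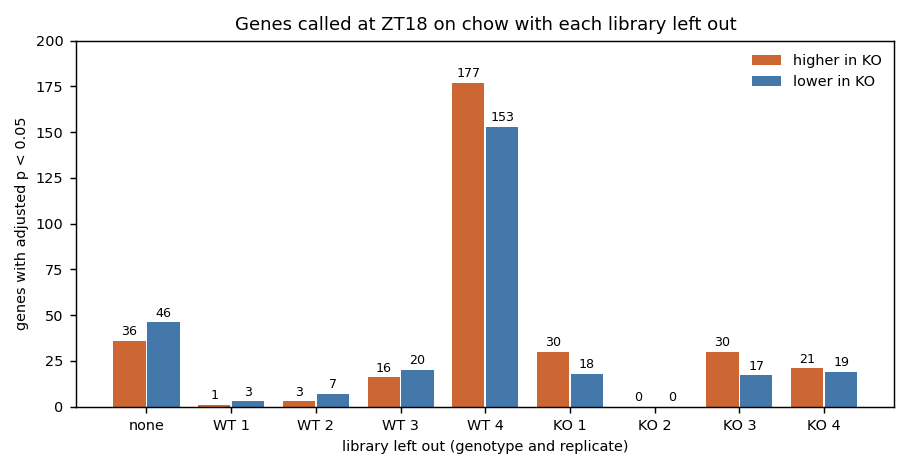
Number of genes with an adjusted p under 0.05 at ZT18 on chow, higher (orange) or lower (blue) in Hep-Bmal1KO livers, with no library or with each of the 8 libraries left out of the fit. Leaving out WT replicate 4 gave 177 higher and 153 lower genes, whereas leaving out KO replicate 2 gave 0 and 0.

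The count with all 8 libraries rested on single libraries. It was 4 without WT replicate 1, 10 without WT replicate 2, 36 without WT replicate 3, 48, 47 and 40 without KO replicates 1, 3 and 4, and 0 without KO replicate 2 (1346 genes at an unadjusted p under 0.05). Without WT replicate 4, leaving out a further library gave between 109 and 263 calls, the fewest without WT replicate 1. When KO replicates 2 and 4 were both left out, 0 genes were called in the comparison with WT replicate 4 (1092 at an unadjusted p under 0.05) and 101 without it, of which 98 were among the 330. Of the 313 genes called without WT replicate 4 that are not acinar genes, WT replicate 4 lay nearer the KO mean than the mean of the other WT libraries in 271 (86.6%).

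Core clock genes were described by their place in the loop. Among the activators, Npas2 (chr1:39193702-39363240, build GRCm38), the partner that can replace CLOCK, was read at 0.191, 0, 1.32 and 16.5 CPM in the WT libraries and at 16.6, 16.2, 13.9 and 18.3 CPM in the KO libraries. WT replicate 4 lay within the KO range and the other 3 WT libraries far below it. The log2 fold change was 1.83 ± 0.80 (SE, adjusted p = 0.4) with all 8 libraries and 5.02 ± 1.09 (adjusted p = 0.00587) without WT replicate 4. Clock lay between 14.1 and 16.1 CPM in WT replicates 1 to 3, at 19.7 CPM in WT replicate 4 and between 19.6 and 23.2 CPM in KO livers, and was not called in either comparison (adjusted p = 0.622 and 0.353). Arntl was not called (log2 fold change -0.18 ± 0.44, adjusted p = 0.945, and -0.45 ± 0.45, adjusted p = 0.761).

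**Figure D2:**
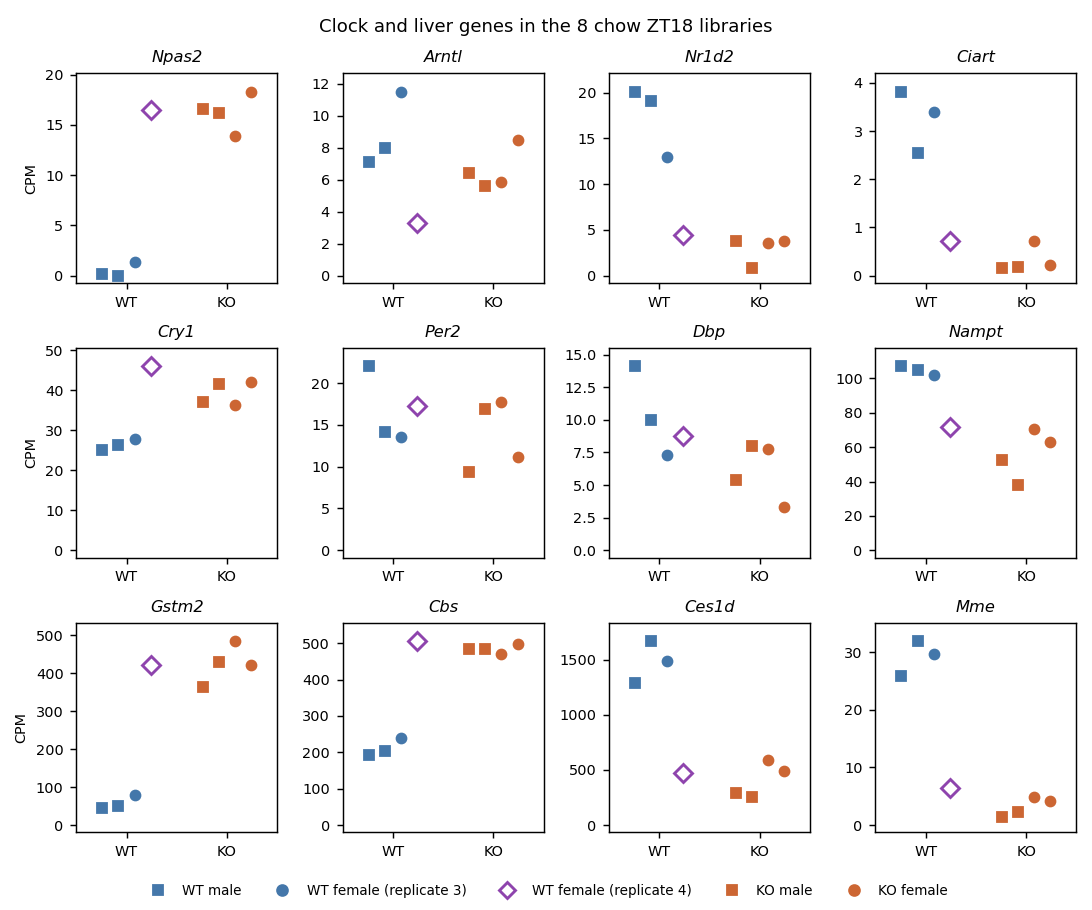
CPM of 12 clock and liver genes in the 8 chow ZT18 libraries, WT on the left and KO on the right of each panel. Squares are males, filled circles females, and the open diamond is WT replicate 4. For Npas2, Gstm2, Cbs and Ces1d the diamond sits at the level of the KO points and apart from the other 3 WT points.

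None of the 5 Per and Cry repressors was called in either comparison. Cry1 was read at 25, 26.3 and 27.9 CPM in WT replicates 1 to 3, at 46 CPM in WT replicate 4 and at 37.2, 41.5, 36.3 and 42.1 CPM in the KO livers. All 4 KO livers were above the first 3 WT livers, and the difference was 0.31 ± 0.48 (adjusted p = 0.895) or, without WT replicate 4, 0.59 ± 0.52 (adjusted p = 0.721) on the log2 scale. Per2, the repressor that also follows feeding and temperature, overlapped between the groups (13.5 to 22 CPM in WT, 9.41 to 17.7 CPM in KO). Per1, Per3 and Cry2 overlapped as well.

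Of the REV-ERB and ROR receptors, which compete for the same promoter element, only Nr1d2 (chr14:18204056-18239106), encoding REV-ERBβ, passed a test. It was read at 20.1, 19.1, 13 and 4.46 CPM in WT and at 3.73, 0.871, 3.57 and 3.79 CPM in KO livers, so that every KO library was below every WT library. The log2 fold change was -2.29 ± 0.60 (adjusted p = 0.0619) with all 8 libraries and -2.66 ± 0.59 (adjusted p = 0.00663) without WT replicate 4. Nr1d1, encoding REV-ERBα, was near its daily low in both genotypes, at 1.3 ± 0.61 CPM in WT and 1.68 ± 0.348 CPM in KO livers (mean ± SD, n = 4), and was not called.

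The PAR bZIP factors DBP, TEF and HLF activate D-box genes, and NFIL3 opposes them. None of the 4 was called. Dbp ran from 7.34 to 14.1 CPM in WT and from 3.34 to 8.01 CPM in KO livers, and Tef from 43.6 to 69.5 CPM and from 38.5 to 48.1 CPM. Of 10 clock modulators none was called, although Ciart, a repressor of the BMAL1 and CLOCK pair, did not overlap between the groups. It was read at 3.82, 2.55, 3.39 and 0.719 CPM in WT and at 0.149, 0.174, 0.713 and 0.223 CPM in KO livers, levels of a few reads, with WT replicate 4 just above KO replicate 3 (adjusted p = 0.239 and 0.0847).

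Of 15 liver genes known as outputs of the clock, 1 fell with all 8 libraries (0.296% of all genes), and 4 fell and 2 rose without WT replicate 4 (0.984% and 1.14% of all genes). The median log2 fold change of the list was -0.41 and -0.56, against 0 and 0.01 over all genes. Nampt, the rate-limiting enzyme of NAD salvage, was read at 107, 105, 102 and 71.7 CPM in WT and at 52.4, 38, 70.5 and 62.9 CPM in KO livers, with no overlap, and fell in both comparisons (log2 fold change -0.83 ± 0.20, adjusted p = 0.0431, and -1 ± 0.21, adjusted p = 0.0033). Gys2, the glycogen synthase of the liver, was read at 153, 170, 111 and 58.2 CPM in WT and at 72, 61.1, 46.6 and 57.5 CPM in KO livers, and fell only without WT replicate 4 (adjusted p = 0.0865 and 0.00793). Por, the reductase that feeds electrons to P450 enzymes, and the tetraspanin Tspan4 also fell in that comparison alone. The 2 genes that rose there were Ppard, a nuclear receptor for fatty acids, and Cdkn1a, an inhibitor of the cell cycle. Ppard was read at 2.68, 3.03, 2.63 and 19 CPM in WT and at 18.4, 24.7, 20.2 and 15.8 CPM in KO livers.

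Calls among the enzymes of cholesterol synthesis were all on the higher side. All 20 enzymes tested had a positive log2 fold change in both comparisons, with medians of 0.66 and 0.84. With all 8 libraries 3 of the 20 were called higher, and without WT replicate 4 14 of the 20, against 0.232% and 1.14% of all genes called higher. No enzyme was called lower. The libraries did not overlap for 8 of the 20 with WT replicate 4 and for 17 without it, against 3.93% and 10.4% of all genes.

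The enzyme that condenses acetyl units at the head of the pathway, Hmgcs1 (chr13:119690351-119708260), was read at 132, 193, 207 and 524 CPM in WT and at 658, 453, 794 and 476 CPM in KO livers. WT replicate 4 lay between the KO livers and the other 3 were below all of them. The log2 fold change was 1.22 ± 0.31 (adjusted p = 0.0494), which just passed, and 1.72 ± 0.31 (adjusted p = 0.000646) without WT replicate 4. Msmo1, the sterol C4 demethylase, was read at 117, 141, 142 and 244 CPM in WT and at 407, 325, 353 and 278 CPM in KO livers, with no overlap even with WT replicate 4 (log2 fold change 1.09 ± 0.27, adjusted p = 0.0498, and 1.36 ± 0.29, adjusted p = 0.00522). The C14 sterol reductase Tm7sf2 was the third (0.56 ± 0.14, adjusted p = 0.0497, and 0.66 ± 0.15, adjusted p = 0.00836). In the comparison with all 8 libraries, Hmgcs1 and Msmo1 lost their call when any 1 of WT replicates 1 to 3 or of the KO livers was left out, and Tm7sf2 kept it only without KO replicate 1 (adjusted p = 0.0386).

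Of the other enzymes, Mvk, Mvd, Idi1, Fdps, Fdft1, Lss, Cyp51, Nsdhl, Hsd17b7, Dhcr7 and the thiolase Acat2 were called higher without WT replicate 4. Mvk, mevalonate kinase, was read at 19.1, 23, 16.4 and 32.3 CPM in WT and at 46.9, 40.9, 52.1 and 33 CPM in KO livers. Sqle, Pmvk, Ebp and Sc5d were not called in either comparison, and the adjusted p-values of Sqle were 0.294 and 0.0905. Of 12 genes that control SREBP2, the transcription factor of this pathway, or take up sterol, none was called in either comparison. Srebf2 itself ran from 16 to 25 CPM in WT and from 18.8 to 33.3 CPM in KO livers. The median log2 fold change of that list was 0.17 and 0.15.

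**Figure D3:**
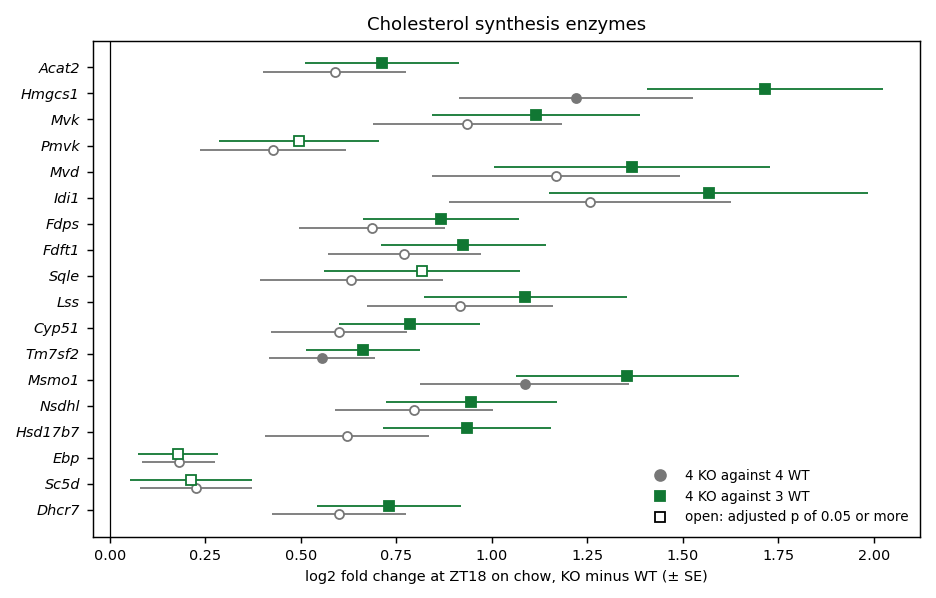
Log2 fold change (KO minus WT, ± SE) at ZT18 on chow of 18 cholesterol synthesis enzymes in pathway order, with all 8 libraries (grey circles) and without WT replicate 4 (green squares); filled symbols have an adjusted p under 0.05. All points lie to the right of 0, and the green squares lie at or to the right of the grey circles for most enzymes.

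Methionine metabolism moved in both directions. Cbs, cystathionine β-synthase, which takes homocysteine into transsulfuration, was read at 193, 203, 239 and 506 CPM in WT and at 484, 484, 471 and 498 CPM in KO livers. WT replicate 4 had the highest value of all 8. The log2 fold change was 0.78 ± 0.20 (adjusted p = 0.0498) and, without WT replicate 4, 1.19 ± 0.17 (adjusted p = 3.91e-05). Ahcy, which hydrolyses S-adenosylhomocysteine, fell in both comparisons (-0.78 ± 0.17, adjusted p = 0.0133, and -0.96 ± 0.16, adjusted p = 0.000279), with 676 CPM in WT replicate 4 and 948 to 1240 CPM in the other WT livers against 528 to 653 CPM in KO livers. Bhmt, which remethylates homocysteine with betaine, rose without WT replicate 4 (1.53 ± 0.42, adjusted p = 0.0369). Of the 10 genes of the list, 2 rose and 1 fell in that comparison, against 1.14% and 0.984% of all genes. With all 8 libraries 1 rose and 1 fell, against 0.232% and 0.296% of all genes.

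Among 19 genes of the urea cycle and amino acid catabolism, 1 fell with all 8 libraries, against 0.296% of all genes. Without WT replicate 4, 1 rose and 2 fell, against 1.14% and 0.984% of all genes. Gpt2, the mitochondrial alanine aminotransferase, was read at 365, 284, 315 and 236 CPM in WT and at 223, 204, 179 and 214 CPM in KO livers, without overlap, and fell in both (-0.55 ± 0.13, adjusted p = 0.0431, and -0.64 ± 0.14, adjusted p = 0.00718). Agxt, the peroxisomal glyoxylate aminotransferase, was read at 140, 120, 217 and 601 CPM in WT and at 411, 492, 641 and 568 CPM in KO livers, and rose without WT replicate 4 (1.66 ± 0.26, adjusted p = 0.00012). Asl, the argininosuccinate lyase of the urea cycle, fell there (-0.85 ± 0.17, adjusted p = 0.00278).

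Glutathione S-transferases conjugate glutathione to electrophiles. None of 14 was called with all 8 libraries, and 4 rose and 2 fell without WT replicate 4, where 1.14% of all genes were called higher and 0.984% lower. The same shares, and 0.232% and 0.296% with all 8 libraries, are the background of the counts in the lists that follow. The 4 that rose were all of the mu class, Gstm2, Gstm3, Gstm6 and Gstm7, and the 2 that fell, Gsta3 and Gsta4, of the alpha class. The mu class genes Gstm1 and Gstm4 did not pass (adjusted p = 0.0555 and 0.0694). Gstm2 (chr3:107981702-107986420) was read at 43.6, 49.9, 79.8 and 421 CPM in WT and at 363, 429, 484 and 422 CPM in KO livers, and WT replicate 4 lay inside the KO range. Its log2 fold change was 1.55 ± 0.46 (adjusted p = 0.133) and 2.88 ± 0.43 (adjusted p = 5.11e-05). Gstm6 was read at 117, 103, 108 and 328 CPM in WT and at 373, 413, 310 and 282 CPM in KO livers. Gsta3 ran from 3220 to 3590 CPM in WT replicates 1 to 3, at 2150 CPM in WT replicate 4 and from 1710 to 2290 CPM in KO livers. The Gstm genes are close paralogs, so that the counting may have divided their reads.

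Carboxylesterases, which hydrolyse esters of lipids and drugs, were called lower only. Of 11, 1 fell with all 8 libraries and 3 without WT replicate 4. Ces1d (chr8:93166072-93197804), a triacylglycerol hydrolase, was read at 1290, 1670, 1490 and 471 CPM in WT and at 292, 250, 592 and 489 CPM in KO livers. The first 3 WT livers lay well above all KO livers and WT replicate 4 among them. The log2 fold change was -1.78 ± 0.32 (adjusted p = 0.00492) and -2.12 ± 0.29 (adjusted p = 1.49e-05). Ces1e and Ces1b fell without WT replicate 4 (adjusted p = 0.00358 and 0.00982).

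Of 17 xenobiotic receptors and P450 enzymes, 1 rose with all 8 libraries, and 2 rose and 2 fell without WT replicate 4. Cyp2c29 was read at 536, 683, 406 and 798 CPM in WT and at 1610, 1710, 1090 and 1240 CPM in KO livers and did not overlap (1.2 ± 0.25, adjusted p = 0.0133, and 1.44 ± 0.27, adjusted p = 0.00101). Cyp2c55 was read at 9.36, 26.1, 5.27 and 97.2 CPM in WT and at 159, 179, 181 and 129 CPM in KO livers, and rose without WT replicate 4 (3.8 ± 0.74, adjusted p = 0.00179). Cyp2a5, the coumarin hydroxylase, was read at 1160, 2100, 680 and 84.1 CPM in WT and at 252, 221, 139 and 127 CPM in KO livers, and fell in that comparison (-2.83 ± 0.59, adjusted p = 0.00422). WT replicate 4 had the lowest Cyp2a5 level of the 8. The fourth gene, Cyp3a13, fell by 0.66 on the log2 scale (adjusted p = 0.0297). The P450 genes of a subfamily also share sequence.

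CHREBP is a transcription factor that responds to carbohydrate. Of 9 of its targets none was called with all 8 libraries and 4 fell without WT replicate 4, with medians of -0.35 and -0.45. Slc2a2, the glucose transporter GLUT2, was read at 221, 187, 158 and 107 CPM in WT and at 102, 91.4, 105 and 80 CPM in KO livers and did not overlap (adjusted p = 0.0649 and 0.00407). Pklr, the pyruvate kinase of the liver, was read at 149, 85.6, 67.7 and 56.5 CPM in WT and at 47, 52.3, 57.9 and 48.1 CPM in KO livers (adjusted p = 0.0864 and 0.0119). Khk, ketohexokinase, fell in that comparison too. In the lipogenesis list of 13 genes the malic enzyme Me1 fell and the elongase Elovl5 rose without WT replicate 4 (adjusted p = 0.0377 and 0.0293), and none was called with all 8 libraries.

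The remaining metabolic lists held few calls, all of them without WT replicate 4. Dgat2, which makes triglycerides, fell by 0.65 on the log2 scale (adjusted p = 0.0123), alone of 11 genes of triglyceride synthesis and VLDL assembly. The glycogen branching enzyme Gbe1 fell and the glucokinase regulator Gckr rose (adjusted p = 0.0146 and 0.0396) among 13 glucose and glycogen genes. Foxo3, a transcription factor held out of the nucleus by insulin signalling, fell by 0.93 (adjusted p = 0.00982). Of 17 bile acid genes, Abcb11, the bile salt export pump, rose (0.62 ± 0.15, adjusted p = 0.0127). Naprt of 8 NAD genes fell (adjusted p = 0.0376), and of 19 genes of fatty acid oxidation and ketogenesis 1 fell. The pericentral gene Oat, ornithine aminotransferase, rose (1.07 ± 0.28, adjusted p = 0.0291).

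Of 10 interferon-stimulated genes, 2 rose without WT replicate 4, and none was called with all 8 libraries. Ifit1 was read at 4.78, 3.67, 8.09 and 13.4 CPM in WT and at 9.56, 12.4, 15.8 and 18.5 CPM in KO livers (1.24 ± 0.33, adjusted p = 0.0276), and Isg15 at 9.75, 5.26, 7.9 and 22.6 CPM and at 12.1, 15.2, 18.1 and 20.5 CPM (0.99 ± 0.27, adjusted p = 0.0379). No gene was called in either comparison in the lists for LXR and sterol efflux, heat shock and cold-inducible genes, the unfolded protein response, NRF2 targets, acute phase proteins, iron metabolism, glucocorticoid-responsive genes, the growth hormone and IGF axis, hepatocyte transcription factors, ribosome biogenesis, the cell cycle, periportal genes and female-biased liver genes. The smallest adjusted p-values in them included 0.0864 for Zbtb16, a glucocorticoid-induced factor, and 0.179 for Tfrc, the transferrin receptor. The lists do not hold every gene of their kind, and related genes outside them were called. Abca8b, which the paper names as a cholesterol efflux protein, rose in both comparisons (0.82 ± 0.19, adjusted p = 0.0243, and 1.07 ± 0.19, adjusted p = 0.00063). Hspb1, a small heat shock protein gene, fell without WT replicate 4 (-1.87 ± 0.46, adjusted p = 0.0162).

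Markers of the other liver cells were not called. Over the 4 WT and the 4 KO livers, macrophage markers summed to 186 to 260 and 178 to 253 CPM, endothelial markers to 128 to 196 and 120 to 139 CPM, stellate cell markers to 179 to 343 and 192 to 253 CPM, and cholangiocyte markers to 35.5 to 71 and 59.1 to 95.1 CPM. The highest WT sums of the stellate cell and cholangiocyte markers, 343 and 71 CPM, were those of WT replicate 4. Of the 5 cholangiocyte markers, 1 did not overlap between the groups with all 8 libraries and 2 without WT replicate 4. The shares of all genes were 3.93% and 10.4%. The median log2 fold change of these 5 was 0.51 and 0.33. The sums of lymphocyte, neutrophil and erythrocyte markers overlapped between the groups. Of 5 hepatocyte markers, Alb fell without WT replicate 4 (-0.98 ± 0.22, adjusted p = 0.00642), from 62300, 65300, 115000 and 54500 CPM in WT to 37200, 28100, 49000 and 64200 CPM in KO livers.

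Pancreatic acinar genes made up much of the higher side with all 8 libraries. Of 21 tested, a list drawn up after the values were seen, 17 were called higher in both comparisons and none lower. Ctrb1, a chymotrypsinogen, was read at 784 CPM in KO replicate 2 and 345 CPM in KO replicate 4, at 0 and 13.2 CPM in KO replicates 1 and 3, and at 0, 8.45, 7.72 and 0 CPM in WT livers. Sycn, a protein of the zymogen granule, was read at 95.4 and 43 CPM in the same KO livers, at 0 in the other 2 and at 0, 0, 0.753 and 0 CPM in WT livers. Both genotypes thus held livers with almost no acinar transcripts, and the groups overlapped for all 21 genes. Without KO replicates 2 and 4, none of them was called against all 4 WT livers, and Sycn, Ctrb1, Cela2a, Cpa1, Cel, Ctrl and Pnliprp1 had negative log2 fold changes.

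**Figure D4:**
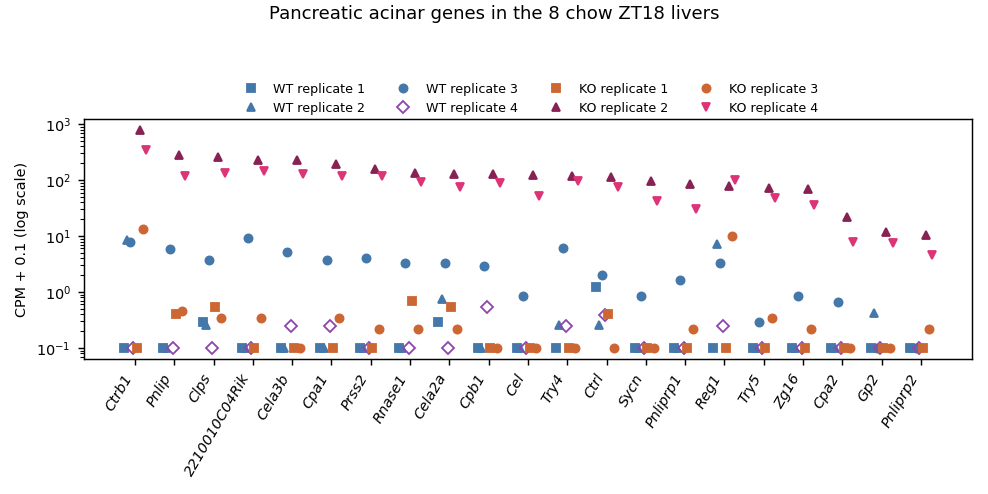
CPM + 0.1 on a log scale of 21 pancreatic acinar genes in the 8 chow ZT18 livers, ordered by their level in KO replicate 2. KO replicates 2 and 4 (triangles) lie above the other 6 livers for every gene, and KO replicates 1 and 3 lie far below them.

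With the acinar genes set aside, 19 genes were higher and 46 lower with all 8 libraries, and 160 and 153 without WT replicate 4. The 19 still hold Klk1, a tissue kallikrein read at 38.3 and 16.3 CPM in KO replicates 2 and 4 and at 1.29 CPM or less in the other 6 livers, and the elastase gene Cela1, at 399 and 267 CPM there and between 21.6 and 131 CPM in the others. Several of those not yet described had similar levels in all 4 KO livers. Ccni, a cyclin I gene, was read at 76.8, 70.3, 76 and 149 CPM in WT and at 156, 155, 145 and 150 CPM in KO livers (0.70 ± 0.15, adjusted p = 0.0211, and 1.04 ± 0.13, adjusted p = 1.28e-05). Stom, the membrane protein stomatin, was read at 20.8, 19.1, 18.8 and 35.5 CPM and at 39.6, 44.2, 32.6 and 41.9 CPM (adjusted p = 0.0211 and 1.48e-05). Rdh11, a retinol dehydrogenase, rose in both comparisons too (0.95 ± 0.21, adjusted p = 0.0235, and 1.28 ± 0.22, adjusted p = 0.000362).

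A further 3 transcripts were low in the first 3 WT livers and rose only without WT replicate 4. Hectd2os, which the symbol names as antisense to Hectd2, was read at 15.3, 13.5, 22.6 and 374 CPM in WT and at 494, 476, 416 and 345 CPM in KO livers (2.09 ± 0.72, adjusted p = 0.219, and 4.66 ± 0.71, adjusted p = 7.9e-05). Grk5, a kinase of G protein-coupled receptors, was read at 1.53, 1.59, 2.82 and 30.5 CPM and at 54.5, 43.9, 29.6 and 19.6 CPM (4.25 ± 0.70, adjusted p = 0.000269 without WT replicate 4). Gm36041 was read at 0.382, 0.159, 0.941 and 9.63 CPM and at 15.4, 14.6, 12.2 and 9.36 CPM (4.70 ± 0.74, adjusted p = 0.000133). Whether the counting used strand is not given in the sources used here, so that reads of an antisense gene and of its partner may not be told apart.

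On the lower side, Mme, the membrane protease neprilysin, was read at 25.8, 31.9, 29.7 and 6.47 CPM in WT and at 1.34, 2.26, 4.87 and 4.24 CPM in KO livers, without overlap (-3.04 ± 0.62, adjusted p = 0.0111, and -3.45 ± 0.59, adjusted p = 4e-04). Abhd6, which hydrolyses monoacylglycerol, was read at 69.9, 85.6, 79 and 32.8 CPM and at 21.5, 26.6, 32.8 and 45.2 CPM (-1.15 ± 0.23, adjusted p = 0.0101, and -1.43 ± 0.20, adjusted p = 3.59e-05). Aldh3a2, the fatty aldehyde dehydrogenase, Dhrs7, a short-chain dehydrogenase, Pcp4l1 and Serpine2, an inhibitor of serine proteases, also fell in both. Gm32468 was read at 19.9, 6.53, 0.753 and 0 CPM in WT and at 0 in all KO livers. Its WT mean of 6.79 CPM stood against a floor of 0.121 CPM, that of 3 reads over the 4 KO libraries, and its level was therefore at least 55.9-fold lower. WT replicate 1 carried most of that mean, and without it the limit was 20-fold, from a mean of 2.43 CPM.

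Several of the called genes were abundant in males of 1 genotype alone. Mup9, a major urinary protein gene, was read at 407 and 160 CPM in the WT males and at 6.72 and 8.19 CPM in the KO males, whereas the WT females were read at 5.65 and 1.44 CPM and the KO females at 0.713 and 1.11 CPM. It fell by 4.49 ± 0.72 on the log2 scale with all 8 libraries (adjusted p = 0.00157) and by 4.82 ± 0.67 without WT replicate 4 (adjusted p = 2.15e-05). Mup15 and Mup19 had the same male pattern, with 1100 and 614 CPM of Mup15 in the WT males against 14.3 and 18.5 CPM in the KO males. The Mup genes are near-identical copies, so that their single values are uncertain. Nat8, an acetyltransferase gene, was read at 59.2 and 73.3 CPM in the WT males, at 2.09 and 1.57 CPM in the KO males and between 0.431 and 0.951 CPM in all females. Its paralog Nat8f5 fell too, from 78 and 83.8 CPM to 11.8 and 16.9 CPM in males. Moxd1, a monooxygenase gene, rose in the males, from 0.573 and 0 CPM to 28.7 and 42.1 CPM, and stood at or under 0.287 CPM in every female. Of 6 male-biased liver genes, Cyp4a12a fell without WT replicate 4 (-1.2 ± 0.32, adjusted p = 0.0291), and its male levels were 319 and 364 CPM in WT and 108 and 174 CPM in KO livers.

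In a fit with a separate genotype difference for each sex, 189 genes were called in males (90 higher, 99 lower, 1.22% of genes) and 0 in females (1012 at an unadjusted p under 0.05), whose WT pair includes WT replicate 4. Without it, 229 were called in males (111 higher, 118 lower) and 1 in females (1186 at an unadjusted p under 0.05). In the WT males, 39.9% and 36.6% of the reads were not on genes, against 29.9% and 29.3% in the KO males. The WT females had 27.5% and 26.1%, and the KO females 25.4% and 25.6%. In males this difference and genotype therefore cannot be told apart. The test of the difference between the sexes called 2 genes (0.0129%, with 997 at an unadjusted p under 0.05). These were Nat8, with a male minus female difference of -5.92 ± 0.86 (adjusted p = 0.000773), and Chic1, with 4.32 ± 0.69 (adjusted p = 0.00268). Chic1 was read at 0.956, 0.159, 6.4 and 13.4 CPM in WT and at 19.7, 16.9, 17.2 and 16.3 CPM in KO livers. Without WT replicate 4, Nat8 alone passed (0.00643% of genes, adjusted p = 0.015), with 782 genes at an unadjusted p under 0.05. For Mup9, Moxd1 and Mup15 the difference between the sexes was not called (adjusted p = 0.503, 0.549 and 0.884), and 2 mice a sex and genotype limit that test.

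Whether the genotype difference at ZT18 departed from that at the other 5 ZTs on chow was tested within the same fit. No gene passed, with or without WT replicate 4 (1043 and 1020 genes at an unadjusted p under 0.05). Without the 4 libraries past the midpoint, an alternative chosen after seeing the data, 2 genes passed (1129 at an unadjusted p under 0.05), both with a lower KO level relative to WT at ZT18 than at the other ZTs, and Cry1 was one of them (difference -1.24 ± 0.22, adjusted p = 0.0109). With all 8 libraries DESeq2 called 4, the acinar genes Clps, Cela2a and Cela3b and the muscle gene Myl2. The test gave no useful answer for 117 genes, 14 of them acinar, whose difference exceeded 3 on the log2 scale with p over 0.99. The genes of smallest p that are not acinar were Prmt5, an arginine methyltransferase, and Tnrc6a, a protein of microRNA silencing, on the higher side. Prmt5 was read at 7.84, 8.29, 6.21 and 6.9 CPM in WT and at 11.6, 15.5, 11.8 and 10.9 CPM in KO livers at ZT18. Its log2 fold change there was 0.77 ± 0.19 and lay between -0.52 and 0.16 at the other 5 ZTs (adjusted p of the difference 0.246). On the lower side were Tmem123, Rnaseh2b and Clcc1, with adjusted p-values of the difference between 0.493 and 0.602.

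The differences called at ZT18 were mostly of the same direction at the other ZTs. Those ZTs share no library with ZT18, but their calls come from the same fit, with a shared spread, scaling and sex term. The overlap of calls is therefore not independent, and the share of all genes with the same direction is not given here. Of the 313 genes called without WT replicate 4 that are not acinar, 304 (97.1%) had the same direction at ZT14 and 195 (62.3%) were called there in that direction. At ZT22 the same direction held for 304 and 113 (36.1%) were called, at ZT2 for 293 and 51 (16.3%), and at ZT10 for 288 and 65 (20.8%). At ZT6, where no gene was called in the whole comparison, the same direction held for 229 (73.2%). Of the 65 genes called with all 8 libraries that are not acinar, 61 had the same direction at ZT14 (42 called), 62 at ZT22 (35), 61 at ZT2 (15), 60 at ZT10 (11) and 40 at ZT6 (0). None of the 313 was called in the opposite direction at any of the other 5 ZTs. With all 8 libraries ZT18 gave 82 calls, against 107 (0.688%) at ZT2, 0 at ZT6 (1559 at an unadjusted p under 0.05), 358 (2.3%) at ZT10, 774 (4.98%) at ZT14 and 230 (1.48%) at ZT22. The other 3 libraries that stood past the midpoint on both gene sets lay at ZT6 (2) and ZT10 (1). Without the 4 of them, the calls were 306 at ZT2, 378 at ZT6, 1253 at ZT10, 1042 at ZT14, 469 at ZT18 and 387 at ZT22, and of the 313 genes 275 had the same direction at ZT6, with 76 called, and 295 at ZT10, with 184 called.

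**Figure D5:**
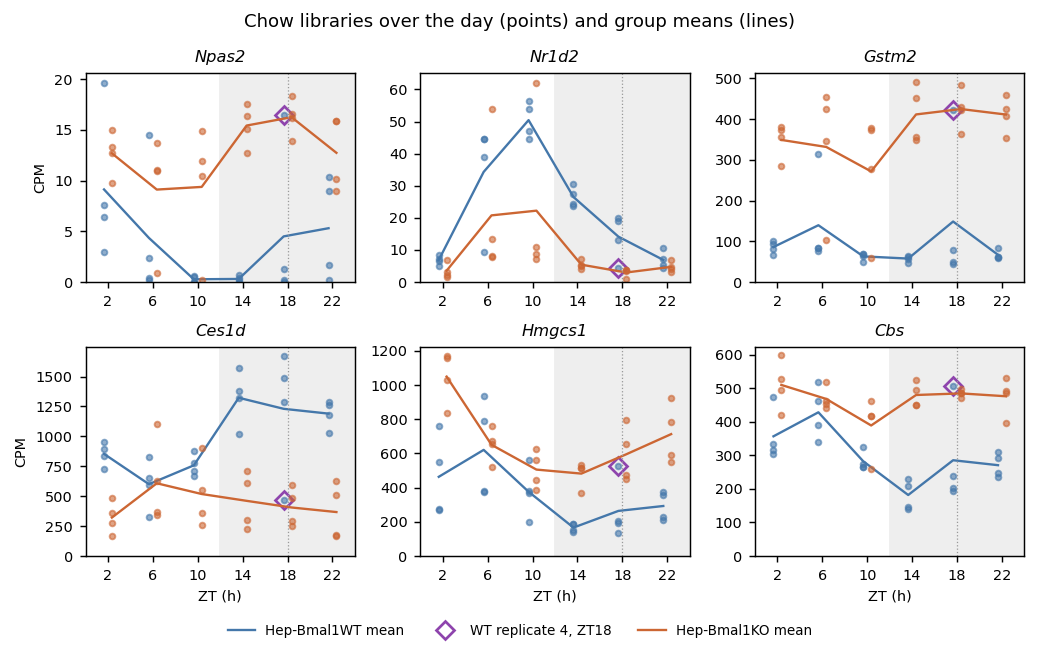
CPM of Npas2, Nr1d2, Gstm2, Ces1d, Hmgcs1 and Cbs in the 48 chow libraries against ZT in hours, WT in blue and KO in orange, with lines through the means of 4 and the dark phase shaded. The open diamond marks WT replicate 4 at ZT18, which lies among the KO points for Npas2, Gstm2, Ces1d and Hmgcs1 and just above them for Nr1d2 and Cbs.

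The 4 libraries past the midpoint on both gene sets lie at ZT6, ZT10 and ZT18. WT females past it on a single set, at ZT2 and ZT22, were kept. The values at ZT6, ZT10 and ZT18 are given without the 4 here. Npas2 means in WT livers were then 9.14 CPM at ZT2, 0.968 at ZT6, 0.278 at ZT10, 0.311 at ZT14, 0.503 at ZT18 and 5.32 CPM at ZT22, and in KO livers they lay between 11.85 and 16.24 CPM at all ZTs. With those libraries kept, the KO means were 9.11 and 9.37 CPM at ZT6 and ZT10. Ces1d means in WT livers lay between 691 CPM at ZT6 and 1483 CPM at ZT18 without them, and with them between 601 CPM at ZT6 and 1322 CPM at ZT14. Its log2 fold change at ZT6 was -0.05 (adjusted p = 0.987) with all libraries and -0.47 ± 0.27 (adjusted p = 0.467) without the 2 at that time, against -1.63 and -1.87 at ZT14 and ZT22 (adjusted p = 0.00103 and 0.000982). For Hmgcs1 the values at ZT6 were 0.07 and, without those libraries, 0.58 ± 0.29 (adjusted p = 0.37), against 1.52 and 1.35 at ZT14 and ZT22. Whether the difference at ZT6 departed from that at the other ZTs was not tested. For neither gene was the difference at ZT18 called different from the mean of the others (adjusted p = 0.772 and 0.933).

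On cdHFD at ZT18, 29 genes were called (17 higher, 12 lower, 0.187% of genes), and 13 of the 17 higher ones were acinar genes. Of the 313 genes named above, 263 (84%) had the same direction on cdHFD and 4 were called, and of the 65 called with all 8 libraries 54 and 0. Cyp2a5 was among them, at 531, 538, 425 and 349 CPM in WT and at 39.8, 38.9, 34.5 and 51.8 CPM in KO livers on cdHFD (log2 fold change -3.45 ± 0.67, adjusted p = 0.00877). Hectd2os was read there at 6.83, 7.69, 6.92 and 9.21 CPM in WT and at 29.7, 29.6, 70.2 and 41.6 CPM in KO livers (2.41 ± 0.51, adjusted p = 0.0175). Gbe1, which fell on chow without WT replicate 4, fell there too (-0.91 ± 0.21, adjusted p = 0.0404), and the fourth was Dcaf12l1 (1.54 ± 0.35, adjusted p = 0.0363).

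No cholesterol synthesis enzyme was called on cdHFD. The list held 20, and its median log2 fold change was -0.04. The cdHFD contained cholesterol, and what part it had in the levels of these enzymes was not tested. Msmo1 was read at 29.2, 26.2, 23.7 and 21.1 CPM in WT and at 20.5, 29.5, 18.2 and 14.1 CPM in KO livers on cdHFD, where the groups overlapped. Hmgcs1 stood between 62.6 and 67.1 CPM in WT and between 49.1 and 96.6 CPM in KO livers. CPM on cdHFD were scaled over the 48 cdHFD libraries, so that levels are not compared between the diets.

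The test of the difference between the diets' genotype effects called no gene with all libraries (879 at an unadjusted p under 0.05, and 0 with DESeq2). Without chow WT replicate 4 it called 12 (0.0772% of genes), 10 with the larger KO level on chow relative to WT and 2 with the smaller. Msmo1 and Hmgcs1 were among the 10, with chow minus cdHFD differences of 1.64 ± 0.34 (adjusted p = 0.0174) and 1.59 ± 0.34 (adjusted p = 0.0259) on the log2 scale, as were Grk5, Gstm3, Rdh11, Stom, Defb1, Mad2l2, Lpl and Gm36041. Add3, an adducin of the membrane skeleton, and Col27a1 were the other two. Add3 was read at 4.97, 10.5, 10.4 and 7.19 CPM in WT and at 4.03, 3.14, 4.87 and 6.02 CPM in KO livers on chow, and at 10, 7.37, 9.16 and 11.8 CPM and 13.6, 11, 12.4 and 13.2 CPM on cdHFD. With all libraries the difference for Add3 was -1.28 (adjusted p = 0.306), and that for Msmo1, the next by p among the genes named here, was 1.38 (adjusted p = 0.527).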

How the data were processed

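Livers were profiled by BRB-seq. The files hold raw counts per gene, which the authors deposited for 55487 genes. Reads were demultiplexed with BRB-seq tools, aligned with STAR to mm10 and counted with HTSeq (featureCounts is also named), with versions not given in the sources used here. No column was left unused.

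Genes with at least 100 counts over the 96 libraries were tested (15548). edgeR (4.0.16, R 4.3.3) quasi-likelihood tests with TMM scaling were fitted to the 48 chow libraries with a mean for each genotype and ZT and an additive sex term. The cdHFD libraries were scaled separately, and the diet test used both. P-values were adjusted by Benjamini and Hochberg over all genes tested, are two-sided and measure the spread between mice, and a gene was called at an adjusted p under 0.05. The SE is the log2 fold change divided by the square root of F. DESeq2 (1.42.0) and limma-voom (limma 3.58.1) with quality weights, estimated for each library, were alternatives. In counts simulated for the ZT18 genotype comparison, changes of 1 on the log2 scale were found in 76% and of 2 in 100% of genes with 4 against 4 libraries, and in 68% and 100% with 4 against 3. The changed genes were drawn from the better expressed genes alone. WT replicate 4 was simulated as an ordinary WT library, and no liver was given added acinar reads. These shares therefore need not hold for the libraries of the series. No 2 libraries of a group were alike within counting noise.

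The members and the gene lists were chosen with earlier results of these data known. The acinar and muscle lists, the removal of KO replicates 2 and 4, the other ZTs without the libraries past the midpoint and the sex test without WT replicate 4 were chosen after seeing the data. Named genes were all core clock genes, the 10 of smallest p in each direction past a 2-fold change in both comparisons, up to 3 of each list, and the leading genes of the ZT and diet tests. Other genes named were chosen after their values were seen. Some members of the lists are counted but not reported here by name. Gene positions are those of RefSeq (GRCm38.p6).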

Additional observations from a re-analysis of the deposited data

Results flagged for a closer look

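Of 200 groups of 4 livers (100 genes, 2 genotypes), 25 held a liver far from the other 3 by Dixon's criterion. Its rate of about 1 group in 20 holds for normal values in unselected groups. Many of these genes were chosen from the values of these livers, and a lone nonzero value among zeros always passes. The 25 are therefore not compared with that rate. WT replicate 4 accounted for 11 of them. It was highest of the WT livers for Npas2 (16.5 CPM), Cry1 (46 CPM), Ccni (149 CPM), Stom (35.5 CPM), Cbs (506 CPM), Gstm2 (421 CPM), Hectd2os (374 CPM), Gm36041 (9.63 CPM), Grk5 (30.5 CPM) and Gstm6 (328 CPM), and lowest for Nampt (71.7 CPM).

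WT replicate 3 accounted for 7. It was highest for the acinar genes Sycn (0.753 CPM), Pnliprp1 (1.51 CPM), Cpa1 (3.58 CPM), Rnase1 (3.2 CPM), Cel (0.753 CPM) and Try5 (0.188 CPM), levels of a few reads, and lowest for Wdr12 (13.5 CPM). The other 7 were Nr1d2 in KO replicate 2 (0.871 CPM, lowest), Spp1 in KO replicate 2 (61 CPM), Ciart and Adgre1 in KO replicate 3 (0.713 and 14.5 CPM), Cd79a in WT replicate 2 (0.319 CPM), and Retnlg in WT replicate 1 and KO replicate 1 (0.191 and 0.747 CPM).

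The genotype difference differed between the sexes for Nat8 (male minus female -5.92 on the log2 scale) and Chic1 (4.32), with adjusted p-values of 0.000773 and 0.00268 by edgeR. For Chic1 the difference was not called without WT replicate 4.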

How the results depend on the processing

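The 82 calls with all 8 libraries moved to 143 with DESeq2 (50 shared), 54 with at least 10 counts in 4 libraries, 510 with no filter on counts, 1 (Sycn) without the sex term, 254 with limma-voom, 349 in males alone, 0 in females alone, 0 without KO replicates 2 and 4 and 469 without the 4 libraries that lay with the other genotype, and ran from 0 to 330 with 1 library left out. The 330 calls without WT replicate 4 moved to 704 with no filter, 171 without the sex term, 563 with the 7 libraries alone, 507 with limma-voom and 101 without KO replicates 2 and 4, and ran from 109 to 263 with a further library left out. DESeq2 called 426 there, of which 303 were among the 330. The test against the other ZTs gave 4 with DESeq2, 2 without the 4 libraries that lay with the other genotype and 0 to 3 with 1 library left out. On cdHFD the 29 calls moved to 49 with DESeq2 and 8 with the stricter filter and ran from 0 to 28 with 1 library left out, the diet test from 0 to 12, and the sex test gave 1 without WT replicate 4. All limma-voom fits also weighted each library by its estimated quality, so that more than the test differed from the main fit. The cause of these shifts was not tested.

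Log2 fold changes turned sign for Per3 (0.053 with limma-voom, 0.92 in females), Hlf (0.17 in females), Nfil3 (-0.0028 with limma-voom, -0.27 without KO replicates 2 and 4), Moxd1 (-0.74), Nat8 (0.71) and Oat (-0.024) in females, and Hao2 (-1.58), Des (0.85) and Hba-a1 (0.29) in males. Without KO replicates 2 and 4 they were -3.25 for Sycn, -0.38 for Ctrb1, -2.06 for Pnliprp1, -1.56 for Cela2a, -2.49 for Cpa1, -3.26 for Cel and -2.27 for Ctrl. With 1 library left out they ran from -0.45 to 0.10 for Arntl, -0.46 to 0.19 for Per3, -0.070 to 0.69 for Nr1d1, -0.26 to 0.018 for Hlf, -0.078 to 0.27 for Nfil3, -1.60 to 3.29 for Retnlg and -0.35 to 0.072 for Hba-a1. For Retnlg it was 0 in females, who had no reads of it at ZT18.

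No paired analysis was possible because the labels and columns carry no replicate numbers. Counts of 4441385 to 7710483 reads a library limit genes of a few reads, such as Ciart, and 4 mice a group limit the rest.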

Other observations

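Among genes that the comparisons above did not describe, several had unlike genotype differences in males and females but did not pass the test of that difference by edgeR. Cyp4a14, a fatty acid hydroxylase of the P450 family, was read at 134 and 349 CPM in WT males and at 63.2 and 28.9 CPM in KO males, and at 729 and 747 CPM in WT females and 1010 and 1190 CPM in KO females (adjusted p = 0.238). Cyp4a10, its relative, was read at 199 and 278 CPM and at 76.6 and 43.5 CPM in males, and at 555 and 308 CPM and at 525 and 645 CPM in females (adjusted p = 0.238). Acacb, an acetyl-CoA carboxylase, was read at 42.2 and 16.1 CPM and at 4.63 and 6.27 CPM in males, and at 13.9 and 13.9 CPM and at 24.5 and 19.2 CPM in females (adjusted p = 0.238). In each case the KO males were below the WT males. These genes were chosen after their values were seen, and the WT females include WT replicate 4.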
